A study of Ictidomys tridecemlineatus with 15 samples.

Results

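Photoreceptor precursors after birth are the cells that the deposited cell table names Photoprecursor in retinas of the 13-lined ground squirrel (13LGS) collected at postnatal day 1 (P1), P4, P8 and P12. There were 1756 such cells among 23430 cells of 7 libraries at these ages, and among 53394 cells in the whole series, which runs from embryonic day 18 (E18) to P21. Whole retinas of animals with no treatment or genetic change named in the labels were profiled by single-cell RNA sequencing with the 10x Chromium 3′ v3.1 kit, in which a unique molecular identifier (UMI) marks each captured mRNA molecule. A library is a time point together with the suffix that ends the cell names, and the libraries are called P1a, P1b, P4, P8a, P8b, P12a and P12b. The labels list 1 sample at P1 while the cell names carry 2 suffixes at that age. Both were used, and values without them are given. Nothing in the labels says that the libraries came from separate animals, so the p-values below measure the spread between libraries, which may be technical.

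A photoreceptor precursor is a cell that has left the cell cycle and is on its way to becoming a cone or a rod. In the vertebrate retina such cells are born from neurogenic progenitors, and the transcription factors Otx2 and Crx set and maintain the photoreceptor program while Prdm1 (Blimp1) holds back bipolar identity, a close neighbour of the photoreceptor fate that also depends on Otx2. Neurod1 and Neurod4 act in the differentiation of retinal neurons, and Rxrg takes part in cone development. Most mammals have retinas rich in rods, whereas ground squirrels, which are active by day, have retinas rich in cones.

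The files used here do not pair gene names with the rows of the count matrix, so the levels of Otx2, Crx, Neurod1, Prdm1, Neurod4 and Rxrg were not analysed here and each gene is named by the number of its matrix row, counted from 1. In place of named markers, sets of up to 50 rows were taken from other libraries: rows highest in cones, in rods, in both, in bipolar cells (the interneurons that photoreceptors contact), in amacrine cells (inhibitory interneurons) and in Müller glia at P17 and P21, and rows highest in early-stage primary and neurogenic progenitors, precursors, ganglion cells and horizontal cells at E24 and E26. No postnatal precursor entered the choice of these rows. Levels are CPM (the UMIs of a row scaled to a total of 1000000 over the summed cells of a class in a library), or the percent of those UMIs that a set of rows took.

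The label was first set against the 50 rows that marked precursors before birth. All 50 rows were highest in precursors among the classes of P1b, as were 45 of 50 at P4 and 28 of 50 in P1a, where 21 were highest in the 10 cells named cones. Cones were not compared in P1b, with 0 cones, or at P4, with 9, fewer than the 10 cells required. Counts with and without cones in the comparison are not alike. At P8 and P12 the label matched this set less well: 2 of 50 rows were highest in precursors in P8a, 17 of 50 in P8b, 5 of 50 in P12a and 2 of 50 in P12b. Cones held 32 of the rows in P8a and 20 in P12b, rods 19 in P12a, and bipolar cells 19 in P8b, where no cell was named a cone. Against late-stage neurogenic progenitors of the same library, precursors were still higher for 38 to 50 of the 50 rows in every library. The name precursor is used below for the deposited label at every age, although at P8 and P12 these rows did not single its cells out. The classes were named by the authors from these same cells, so these counts are descriptions.

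Among all 1970 rows with at least 50 CPM in precursors of each of the 7 libraries, 0 were higher there than in every other class of every library. The row that came closest, row 28446, had 1242, 859, 952, 1062, 839, 894 and 771 CPM in P1a, P1b, P4, P8a, P8b, P12a and P12b. It was near the highest other class in each library, with log2 ratios between -0.02 and 0.21. The next, row 17028, had 266, 123, 139, 97.4, 89.7, 126 and 73.9 CPM in the same order, and its log2 ratio to the highest other class ran from 1.85 in P1a to -0.07 in P12b. Neither passed the test for a change with age (edgeR quasi-likelihood test, adjusted p = 0.707 and 0.155).

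Precursors made up 5.52% of the cells of P1a (176 of 3188), 4.18% of P1b (156 of 3732) and 11.98% of P4 (468 of 3908). The 2 libraries of P8 lay far apart, with 5.21% in P8a (157 of 3012, 95% Wilson interval 4.47 to 6.06) and 48.9% in P8b (669 of 1369, 46.2 to 51.5). At P12 the shares were 0.844% in P12a (36 of 4265) and 2.38% in P12b (94 of 3956), below every earlier library. No cell carried the label at P17 or P21, where 0 of 5277 and 0 of 5057 cells allow shares of up to 0.0569% and 0.0593%. Intervals and limits cover counting error only. Over the 7 libraries the share had Spearman rho = -0.48 with postnatal day (two-sided exact permutation test, p = 0.279, adjusted over 3 relations 0.419) and Pearson r = 0.02 (p = 0.971), so a trend did not hold up against the spread.

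**Figure D1:**
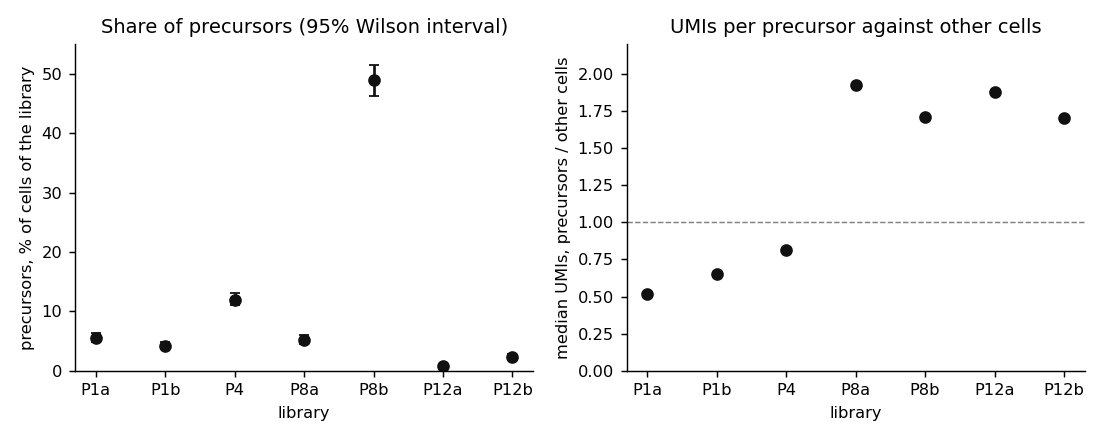
Left, percent of the cells of each library named precursors, with 95% Wilson intervals. Right, median UMIs per precursor divided by the median UMIs of all other cells of the library, with a dashed line at 1. P8b stands alone at 48.9%, and the ratio lies between 0.519 and 0.813 up to P4 and between 1.70 and 1.92 from P8 on.

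Counted only against cones and rods, precursors were most photoreceptor-class cells up to P8, all of them in P8b, and few at P12. They were 176 of 186 such cells in P1a (94.6%), 156 of 156 in P1b, 468 of 477 at P4 (98.1%), 157 of 239 in P8a (65.7%) and 669 of 669 in P8b. In P12a they were 36 of 622 (5.79%) and in P12b 94 of 492 (19.1%), beside 570 and 384 cones and 16 and 14 rods. The relation with day gave rho = -0.70 (exact permutation p = 0.0921, adjusted 0.276) and r = -0.84 (p = 0.0254, adjusted 0.0762), and r = -0.89 without the P1 libraries. It did not pass after adjustment. Precursors per late-stage neurogenic progenitor, the class from which late-born neurons arise, were 0.707, 0.768, 1.19, 0.543, 20.3, 0.283 and 0.803 in P1a to P12b, and this ratio had no trend with day (rho = -0.15, exact permutation p = 0.740). P8b is the exception here too, with 33 late-stage neurogenic progenitors against 669 precursors.

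The amount of RNA captured per precursor changed its place among the classes between P4 and P8. The median was 1993 UMIs in P1a, 2259 in P1b and 1276 at P4, the lowest of the 8, 8 and 7 classes with at least 10 cells there. It was 4338 in P8a, 3887 in P8b, 4361 in P12a and 7056 in P12b, the highest class of P8b and second in the other 3. Divided by the median of the other cells of the library, the values were 0.519, 0.652 and 0.813 up to P4 and 1.92, 1.71, 1.88 and 1.70 from P8 on, with no overlap. The 6 embryonic libraries lay between 0.46 and 0.63 on this ratio. Thinned to 500 UMIs per cell, precursors held a median of 355 to 380 detected rows in every library, so the number of rows seen at equal depth differed little. More than 2 times the median UMIs of their library and class was found in 236 of 1756 precursors (13.4%). Barcodes were almost never shared between libraries: 0 between P8a and P8b, and 1 precursor barcode in all.

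Summed per library, precursors of the same age were not closer to each other than to precursors of other ages in every case. Over 3245 rows with a mean of at least 50 CPM, the log2 levels of P8a and P8b had r = 0.93 across rows, with 184 rows (5.67%) at least 2-fold apart, although the libraries differed so much in share. The pair P1a and P1b had r = 0.88 and 390 rows 2-fold apart (12.02%), more than P1a and P4 with 233 (7.18%). P12a and P12b, with 36 and 94 cells, had r = 0.86 and 469 rows apart (14.5%). Across rows, which are not independent replicates, these values describe how far a change with age has to exceed the spread within an age.

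Precursors of the same library were set beside every other class with at least 10 cells over the same rows. Late-stage neurogenic progenitors were the most similar class in P1a (r = 0.78 across rows), P1b (0.84), P4 (0.89) and P8b (0.89). In P1b, P4 and P8b, with 0, 9 and 0 cones, cones were not compared and so could not rank. Cones were the most similar in P8a (0.93), P12a (0.92) and P12b (0.96), followed at P12 by bipolar cells (0.88 and 0.90). Where cones were named at P1, in 10 cells of P1a, they were sixth of 7 classes (0.67). Classes of a library share its free RNA and depth, and the part of that in these values was not tested.

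Cell by cell, with each cell thinned to 500 UMIs and set against class profiles made from the other libraries, the picture was less clear. The most similar class other than their own was late-stage neurogenic progenitor for 85.8% of precursors of P1a, 48.1% of P1b, 66.9% of P4, 69.4% of P8a and 77.4% of P8b, and for 8.33% of P12a and 24.5% of P12b. Bipolar cells were that class for 72.2% of P12a and 33.0% of P12b, and for 18.5% or fewer in each earlier library. Horizontal cells were that class for 34.0% of P1b and 34.0% of P12b, there 1 cell more than bipolar cells, and for 12.8% or fewer in the other libraries. Cones were that class for 0 precursors of any library. Cones themselves were often nearest the precursor profile, 71 of 82 in P8a, 124 of 570 in P12a and 338 of 384 in P12b. The 0 therefore cannot show that precursors were unlike cones. Neither share passed a test with day (late-stage neurogenic progenitors, rho = -0.59, exact permutation p = 0.181, adjusted 0.271; bipolar cells, rho = 0.64, p = 0.143, adjusted 0.271). The method separates classes loosely, since 69.1% of all 23430 cells were nearest their own class. Of the cells nearest the precursor profile, only 14.5% of 698 in P8a, 1.44% of 139 in P12a and 7.15% of 1175 in P12b were named precursors. Of the precursors, 222 of 669 in P8b, 2 of 36 in P12a and 84 of 94 in P12b were nearest their own class.

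Rows changed with age within precursors. A slope over postnatal day was fitted to the 7 precursor sums and is given as the log2 change from P1 to P12 (edgeR quasi-likelihood test, Benjamini-Hochberg over all rows tested). Of 8759 rows tested, 173 (1.98%) passed an adjusted p of 0.05, with 107 higher at P12 (1.22%) and 66 lower (0.754%), and each of the 173 changed at least 2-fold. At an unadjusted p of 0.05, 1051 rows passed. The count was 28 without both P1 libraries and 270 with DESeq2, and it was 89 without P1a, 96 without P4, 102 without P8a and 95 without P12a.

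Part of the rows that marked bipolar cells at P17 and P21 were called higher with age. Of these 50 rows, 35 passed the filter on low counts, and 14 were called higher and 0 lower. Over all rows tested, 1.22% were called higher and 0.754% lower. The median log2 change of the set was 1.65 against -0.02 over all rows tested. With no filter on low counts, which keeps all 50, 25 were higher and 0 lower, against 1.26% of all rows called higher and 0.648% lower, and the median was 2.35 against 0.33. The set took 0.186%, 0.167% and 0.172% of precursor UMIs in P1a, P1b and P4, then 0.413% and 0.297% in P8a and P8b, and 0.769% and 0.803% in P12a and P12b. Bipolar cells themselves were named from P8 on and held 1.17%, 0.973%, 1.49% and 1.52%. Without both P1 libraries, 8 of 42 tested rows were higher, against 0.26% of all rows. Without both P8 libraries 6 of 21 were, against 0.64% of all rows.

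Part of these rows were called higher in other classes as well. In late-stage neurogenic progenitors 13 of 19 tested bipolar rows were higher with age and 0 lower, against 3.81% of all rows tested there called higher. In amacrine cells 19 of 38 were higher and 1 lower, against 5.96% of all rows called higher. The levels there at P12 were lower than in precursors, at 0.254% and 0.248% in late-stage neurogenic progenitors, 0.223% and 0.212% in amacrine cells, and 0.395% and 0.343% in cones. Free RNA from bipolar cells would enter all classes of a library, and its part in these counts was not tested.

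The cone and rod shared rows, taken at P17 and P21, were already present in precursors at P1. They took 0.765% and 0.566% of UMIs in P1a and P1b, 0.718% at P4, 0.788% in P8a, 0.460% in P8b, and 1.04% and 1.13% in P12a and P12b. In each library this was above late-stage neurogenic progenitors (0.0569% to 0.246%) and amacrine cells (0.0595% to 0.113%), and below cones wherever these were compared (1.51% in P1a, 1.65% in P8a, 2.03% in both P12 libraries). Of the 50 rows, 41 were tested for age, with 5 higher, 0 lower and a median log2 change of 0.51. Over all rows tested, 1.22% were called higher and 0.754% lower, with a median of -0.02. The cone rows had 5 higher and 1 lower of 45 tested (median 0.29), and the rod rows 0 of 26 in either direction (median -0.01).

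Of the rows that marked precursors before birth, the embryonic precursor rows, some were called lower with age. All 50 passed the filter, and 8 were lower and 0 higher, with a median log2 change of -0.85. Over all rows tested, 0.754% were called lower and 1.22% higher. The set took 1.87% and 1.60% of UMIs at P1, 1.48% at P4, 1.06% in P8a, 0.639% in P8b, and 1.48% and 1.35% at P12, so P8b was the lowest library and the P12 libraries were not. Without both P1 libraries 0 of 49 tested rows were called lower and the median was 0.09, and without P1a 4 of 50 were. Over all rows, only 4 of 9142 were called lower without both P1 libraries (0.044%), and 0.26% without P1a. The calls therefore rest on the P1 libraries, and the loss of calls was not particular to this set.

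The sets of other classes had 0 to 5 calls each, against 1.22% of all rows tested called higher and 0.754% called lower. Early-stage neurogenic progenitor rows had 0 calls among 47 tested (median -0.02), early-stage primary progenitor rows 0 among 37 (0.03), and Müller glia rows 0 among 22 (median 1.30). Amacrine rows had 2 higher of 21, ganglion cell rows 2 higher and 1 lower of 14, and horizontal cell rows 3 higher and 2 lower of 34. The Müller glia rows peaked at P8, at 0.533% of precursor UMIs in P8a and 0.565% in P8b, against 0.133% to 0.268% in the other 5 libraries, a course that a slope over day does not follow. In P8b late-stage neurogenic progenitors had 0.518% and amacrine cells 0.206%, and in P8a these were 0.386% and 0.126%.

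**Figure D2:**
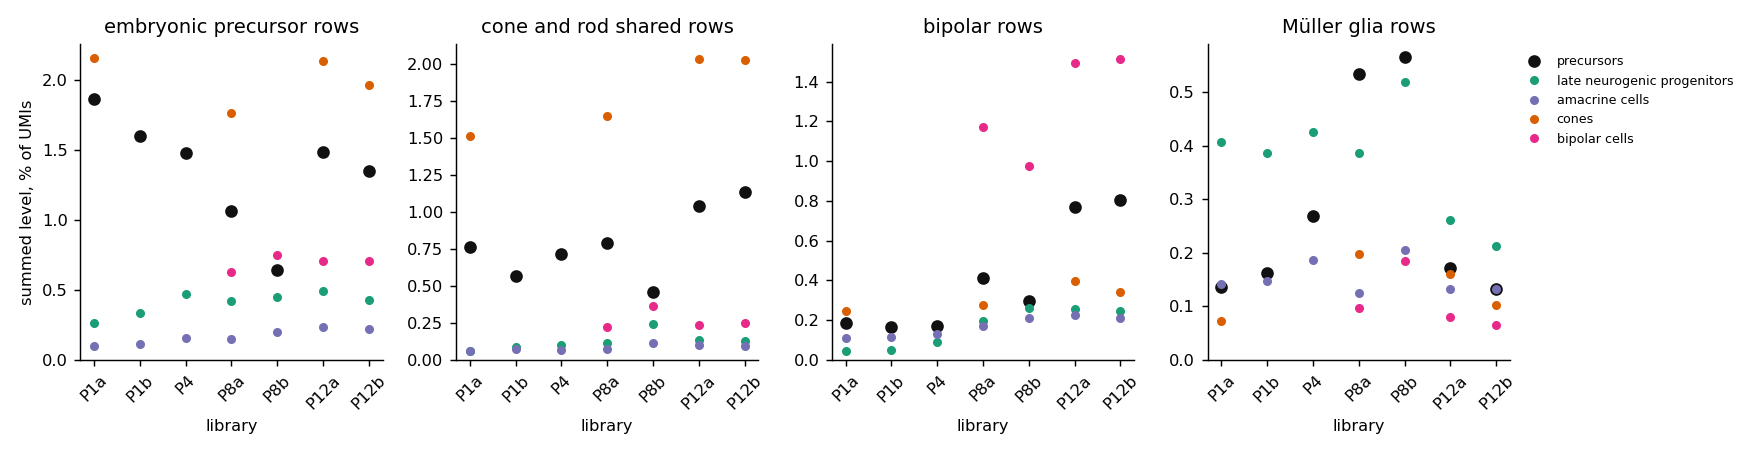
Percent of UMIs taken by 4 sets of rows in each library, for precursors (large black points) and the other classes named in the legend, each axis starting at 0. Precursors at P12 lie at 0.769% and 0.803% for bipolar rows, between cones and bipolar cells, and the Müller glia rows are highest in P8a and P8b.

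**Figure D3:**
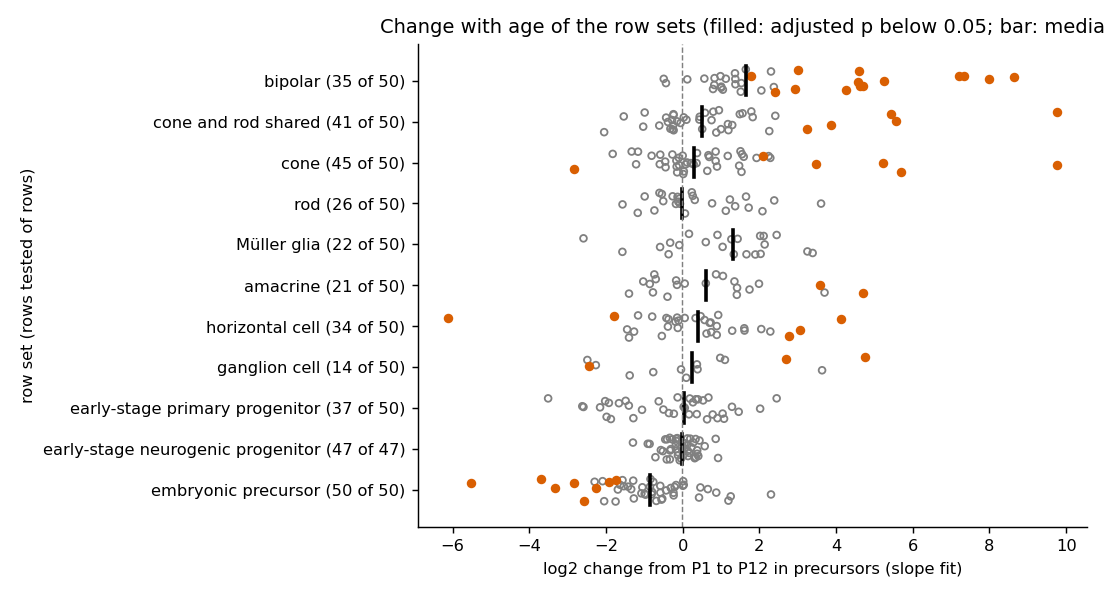
Each point is a row that passed the filter, placed by its log2 change from P1 to P12 in precursors; filled points passed an adjusted p of 0.05, black bars are set medians and the dashed line is the median of all rows tested. The bipolar rows have 14 filled points on the right and the embryonic precursor rows 8 on the left.

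Both rows named for the largest rise belonged to the bipolar set and were not seen in precursors at P1. Row 6843 had 0 UMIs in P1a and P1b, 1.22 CPM at P4, 37.4 and 23.5 CPM in P8a and P8b, and 236 and 193 CPM in P12a and P12b. Over the summed UMIs, the P12 level was at least 56.7-fold higher than the limit of 3 UMIs over both P1 libraries (edgeR adjusted p = 2.9e-05 for the slope). Bipolar cells had 242 and 304 CPM at P12, near the precursors, while cones had 52.7 and 43.6 CPM and late-stage neurogenic progenitors 29.9 and 22.5 CPM.

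Row 24255 was likewise at 0 in P1a, P1b and P4. It had 127 and 43.0 CPM in P8a and P8b and 472 and 176 CPM in P12a and P12b, at least 62.0-fold above the same limit (adjusted p = 0.0020). Here bipolar cells were higher than precursors in each library, with 686, 511, 1215 and 729 CPM from P8a to P12b, and cones had 138, 143 and 83.0 CPM in P8a, P12a and P12b. The call was lost without both P1 libraries.

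The row with the largest fall, row 7093, was a row of early postnatal precursors. It had 239, 111 and 344 CPM in P1a, P1b and P4 and 5.66, 3.14, 5.49 and 0 CPM in P8a, P8b, P12a and P12b, so the groups did not overlap. The 2 P1 libraries held 152 UMIs and the 2 P12 libraries 1, a ratio of 232 with a 95% exact counting interval of 41.1 to 9232 (slope, adjusted p = 0.0194). Before birth it was at 8.15 CPM or less in precursors of each library, and other classes held little of it: 7.26 CPM or less in late-stage neurogenic progenitors of P1 and 28.5 CPM at P4, and 72.8 CPM in the 10 cones of P1a. Its call was lost without P8a, P12a or P12b in turn, and with the log2 of postnatal day.

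Row 23508, a member of the horizontal cell set, followed another course. Precursors had 275 to 487 CPM in the 6 embryonic libraries, 221 and 424 CPM at P1, 94.0 CPM at P4, 4.53 and 28.6 CPM at P8 and 5.49 and 6.24 CPM at P12. The log2 change over the slope was -6.11 ± 0.63 (SE, adjusted p = 2.8e-04), and the call was lost without both P1 libraries (adjusted p = 0.0693). It also fell in late-stage neurogenic progenitors (log2 change -5.50 ± 0.72, adjusted p = 1.2e-04) and in amacrine cells (-3.85 ± 0.59, adjusted p = 0.0038), where its P1 levels were 105 and 78.4 CPM and 56.0 and 30.0 CPM.

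**Figure D4:**
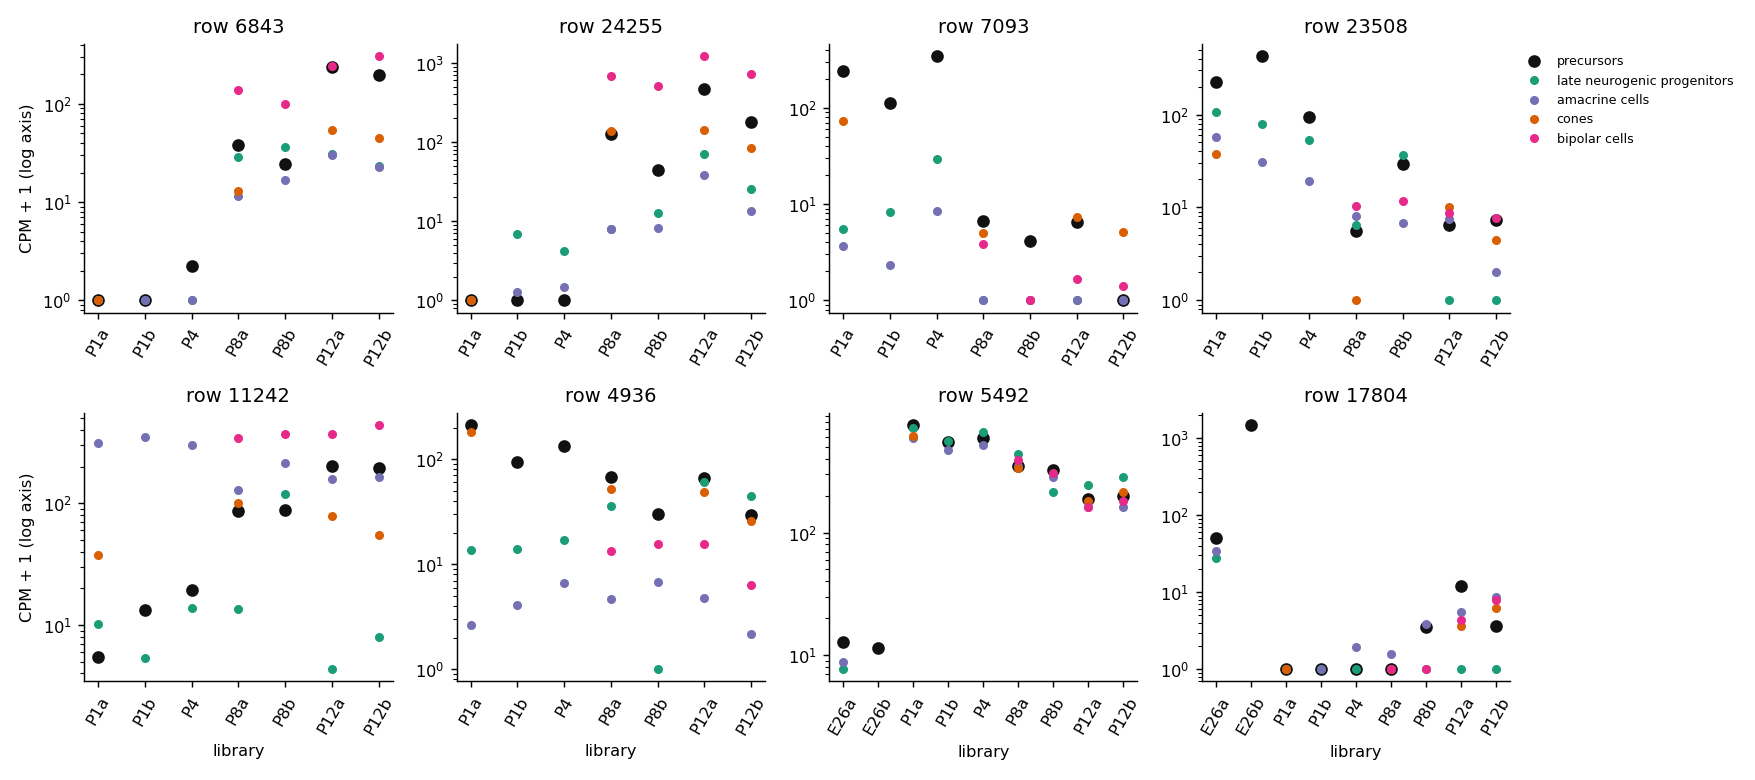
CPM + 1 on a log axis of 8 rows in each library, with E26 added for rows 5492 and 17804, in precursors (large black points) and the other classes named in the legend. Rows 6843 and 24255 are at or near 0 in precursors up to P4 and rise from P8 on with bipolar cells above the other classes, row 7093 is high in precursors at P1 and P4 only, and row 5492 is at like levels in all classes of a library.

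Whether the change differed from that of the class most like precursors was tested directly: the slope of precursors with age was set against that of late-stage neurogenic progenitors of the same libraries. The slopes differed for 442 of 9641 rows (4.58%), with precursors rising more, or falling less, for 211 (2.19%) and the reverse for 231 (2.40%). This was 171 without P1a, 183 without P1b, 290 without P12a and 50 without both P1 libraries. Embryonic precursor rows stood out on the lower side, with 14 of 50 lower and 1 higher. In the fit of age within late-stage neurogenic progenitors, 11 of 38 of these rows were higher and 3 lower, against 3.81% of all rows called higher. The 14 are therefore not all falls in precursors. Early-stage primary progenitor rows were higher for 8 of 46 and lower for 0, and in the fit of age within late-stage neurogenic progenitors 13 of 40 of these rows were lower and 1 higher, against 4.85% of all rows called lower. Müller glia rows were higher for 6 of 31 and lower for 0, and within late-stage neurogenic progenitors 6 of 25 of them were lower and 3 higher. For bipolar rows the slopes differed in 4 of 41, 3 higher and 1 lower.

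Row 6843 had the largest difference on the higher side (log2 difference 6.46 ± 1.51, SE, adjusted p = 0.0093). This call was lost without P8a or without P12b, and also without cells of high UMI count. Row 11242 rose in precursors (log2 change 4.50 ± 0.45, adjusted p = 2.1e-04), from 4.47 and 12.3 CPM at P1 through 18.3 CPM at P4 and 86.1 and 86.6 CPM at P8 to 203 and 196 CPM at P12. Late-stage neurogenic progenitors had 9.14, 4.36, 12.7, 12.5, 119, 3.32 and 6.92 CPM in P1a to P12b, high only in the 33 cells of P8b (log2 difference 4.63 ± 0.99, adjusted p = 0.0040). In those progenitors it did not pass the filter on low counts. Bipolar cells held more of this row than precursors from P8 on, at 342, 369, 372 and 439 CPM in P8a to P12b.

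On the lower side, row 4936 fell in precursors from 210 and 93.6 CPM at P1 to 65.8 and 28.5 CPM at P12. In late-stage neurogenic progenitors it went from 12.6 and 13.1 CPM to 59.8 and 43.2 CPM, so the classes met at P12 (log2 difference -4.23 ± 0.50, adjusted p = 1.8e-06). Row 19061 was at 73.7 and 101 CPM in precursors at P1 and 49.4 and 68.6 CPM at P12, with no call for age within precursors (adjusted p = 0.605), while late-stage neurogenic progenitors went from 4.57 and 13.1 CPM to 89.7 and 93.4 CPM (log2 difference -3.99 ± 0.49, adjusted p = 3.8e-06). Both rows were thus higher in precursors than in late-stage neurogenic progenitors at P1, but not in both P12 libraries. Neither was particular to precursors. The 10 cones of P1a had 182 CPM of row 4936 and 109 CPM of row 19061. At P12 row 19061 was also at 59.5 and 76.8 CPM in bipolar cells and 53.4 and 55.4 CPM in cones.

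Against amacrine cells, the neurons most abundant in most of these libraries, the slopes differed for 453 of 13002 rows (3.48%), 263 higher in precursors (2.02%) and 190 lower (1.46%). The count was 171 without P1a, 215 without P1b, 273 without P4, 935 without P8b, 271 without P12a and 43 without both P1 libraries. Embryonic precursor rows were lower for 16 of 50 and higher for 1. Within amacrine cells 9 of 45 of them were higher and 2 lower, against 5.96% of all rows called higher. Bipolar rows were higher for 9 of 48 and lower for 2, and horizontal cell rows were higher for 13 of 49 and lower for 1, and within amacrine cells 17 of 49 of them were lower and 5 higher, against 3.77% of all rows called lower. Cone and rod shared rows were higher for 2 of 50 and lower for 0.

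Row 11242 led here too (log2 difference 5.65 ± 0.46, adjusted p = 9.2e-07), since it fell in amacrine cells from 315 and 350 CPM at P1 to 157 and 164 CPM at P12 and so reached the same range in both classes. Bipolar cells were above both at P12, with 372 and 439 CPM. Row 11460 stayed at 61.6 to 139 CPM in precursors of every library while amacrine cells fell from 2627 and 798 CPM at P1 to 112 and 60.9 CPM at P12 (log2 difference 4.90 ± 0.42, adjusted p = 1.2e-06). Within precursors it had no call for age (adjusted p = 0.700), and within amacrine cells it fell (log2 change -4.51 ± 0.57, adjusted p = 0.0014). Row 13586 fell in precursors from 103 and 227 CPM at P1 to 38.4 and 33.9 CPM at P12, and in amacrine cells it was at 7.58 and 14.6 CPM and then 36.7 and 61.1 CPM (log2 difference -4.61 ± 0.49, adjusted p = 1.7e-05), a call that was lost without both P1 libraries (adjusted p = 0.0879). Row 23818, a member of the embryonic precursor set, had 1226 and 603 CPM in precursors at P1 and 911 and 442 CPM at P12 with no call of its own (adjusted p = 0.573), whereas amacrine cells went from 27.0 and 13.8 CPM to 314 and 193 CPM (log2 difference -4.08 ± 0.28, adjusted p = 8.2e-08).

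Single cells were then examined for the bipolar and photoreceptor rows together, since the sums cannot show whether the same cells held both. Each cell was thinned to 1000 UMIs, which left out 3 precursors of P1a, 3 of P1b, 31 of P4 and 1 of P12b. A cell counted as above background for a set if it held more of its UMIs than 95% of the amacrine cells of its library. For the 144 rows of the cone, rod and shared sets, this was so for 94.8% of precursors of P1a, 83.7% of P1b, 91.8% of P4, 97.5% of P8a, 61.1% of P8b, 88.9% of P12a and 100% of P12b. For the 50 bipolar rows it was so for 5.78%, 10.5%, 6.86%, 34.4%, 8.37%, 58.3% and 71.0%.

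At P12 most precursors were above background for both. These were 19 of 36 precursors of P12a (52.8%) and 66 of 93 of P12b (71.0%), against 54 of 157 in P8a (34.4%), 34 of 669 in P8b (5.08%), 27 of 437 at P4 (6.18%), 15 of 153 in P1b (9.80%) and 10 of 173 in P1a (5.78%). In the same P12 libraries both sets were found in 18.8% and 14.9% of cones, 15.9% and 16.2% of bipolar cells and 0% and 0% of late-stage neurogenic progenitors. At earlier ages other classes were nearer to precursors or above them. Bipolar cells held both in 27.8% of P8a and 31.25% of P8b, and cones in 17.1% of P8a and in 3 of 10 cells of P1a. The class names were made from these cells, so the difference between classes is a description. Over the 7 libraries, the share of precursors with both had r = 0.83 with day (two-sided exact permutation test, p = 0.0317) and rho = 0.64 (p = 0.143), and r = 0.87 without the P1 libraries. This relation was chosen after its values were seen, was not adjusted, and passed by r but not by rho.

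Doublets of a cone and a bipolar cell would also hold both sets. In P12b the precursors with both had a median of 9216 UMIs and the others 4992, whereas in P12a the medians were 4347 and 4415 and in P8a 4392 and 4257. Without cells above 2 times the median UMIs of their library and class, the shares were 53.3% in P12a, 66.7% in P12b and 36.8% in P8a. This cut follows the precursors' own median, 4361 UMIs in P12a and 7056 in P12b. Cones there had medians of 3256 and 5256 UMIs and bipolar cells 2125 and 3797. The cut could therefore leave such doublets in, and the shares after it cannot decide on them. Scrublet marked 3 of 23430 cells, 0 of them precursors, a share too low for the caller to have worked, so no doublets were removed and their part was not tested.

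P8b precursors differed from the other libraries cell by cell as well. Neither set was above background in 238 of 669 cells (35.6%), against 0% to 15.7% in the other libraries. Embryonic precursor rows were above background in 58.9%, against 94.4% to 100% elsewhere. The 97 rows of the early-stage progenitor sets were above background in 28.3%, against 3.47% to 13.98% elsewhere, close to the 33.3% of late-stage neurogenic progenitors in P8b. The amacrine cutoff for these rows differed, at 25 UMIs in P8b, 26 in P8a, 21 in P12a, 27 in P12b, 30 in P1a and P1b and 32 at P4. Precursors held a median of 23 such UMIs in P8b, within the range from 16 in P12a to 24 at P4. The higher share in P8b thus did not mean more of these UMIs per cell than at P4. It was seen beside P8a at nearly the same cutoff, where the median was 20 UMIs and 9.55% of precursors were above.

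**Figure D5:**
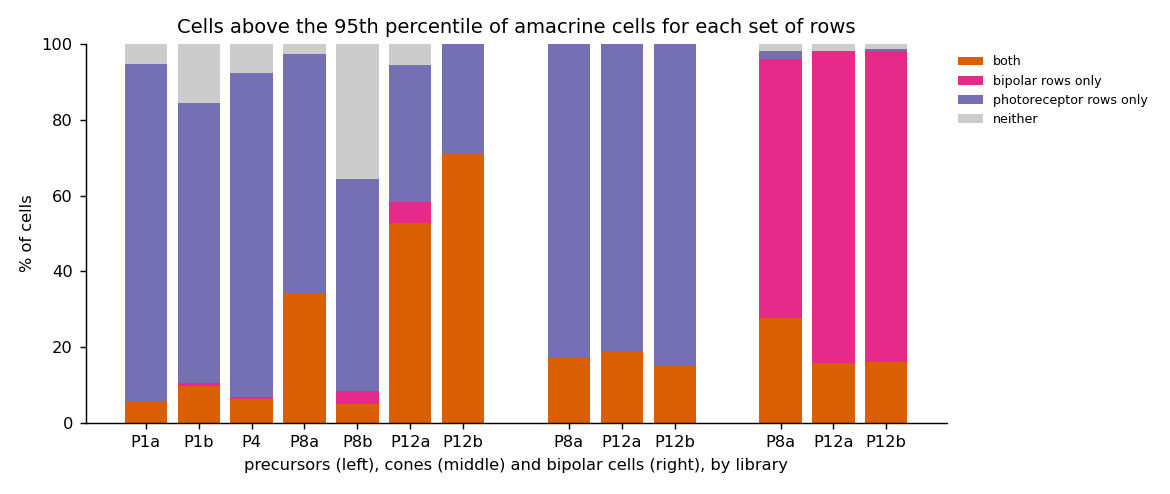
Stacked percent of cells above the 95th percentile of amacrine cells of their library for bipolar rows, photoreceptor rows, both or neither, for precursors in 7 libraries and for cones and bipolar cells in P8a, P12a and P12b. Cells with both reach 52.8% and 71.0% of precursors at P12 and stay under 19% of cones and bipolar cells there, and 35.6% of P8b precursors have neither.

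Across birth, precursors of P1 were compared with those of E26, the last age before birth, with the time point as a factor over 13 libraries from E21 to P12. Of 11680 rows, 53 passed (0.454%), 30 higher at P1 (0.257%) and 23 lower (0.197%), and 1342 passed at an unadjusted p of 0.05. The count was 13 without P1a or E26b, 20 without E26a, 300 without P1b, 80 without P8b, and 8 with the E26 and P1 libraries alone. Cone rows were higher for 5 of 49 tested (median log2 change 1.02) and cone and rod shared rows for 4 of 50 (median 1.21), with 0 lower in both, against a median of 0 over all rows. Embryonic precursor rows had 2 higher and 4 lower of 50 (median -0.07). The calls among both sets were thus in the higher direction, while the embryonic precursor rows were called in both directions.

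The rows named for birth were not particular to precursors in their levels. Row 5492 had 11.6 and 10.5 CPM in precursors of E26a and E26b and 755 and 547 CPM in P1a and P1b (log2 change 5.80 ± 0.55, adjusted p = 6.1e-07), but amacrine cells had 7.78 CPM in E26a and 597 and 475 CPM at P1. Row 3366 had 6.99 and 15.7 CPM at E26 and 677 and 209 CPM at P1 (adjusted p = 0.0318), and then 5.49 CPM in P12a and 1303 CPM in P12b, with 7.83 and 1362 CPM in amacrine cells of those libraries. The call was lost in 8 of 18 alternatives: without E24a, E24b, E26a, E26b, P1a or P4 in turn, without cells of high UMI count, and with sums thinned to the smallest.

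Rows 17804 and 17801 were lower after birth. Row 17804 had 48.9 and 1472 CPM in precursors of E26a and E26b and 0 UMIs in both P1 libraries, at least 227-fold lower against the limit of 3 UMIs over both (adjusted p = 0.0029). Row 17801 had 19.8 and 343 CPM at E26 and 0 UMIs in every postnatal library, at least 54.0-fold lower at P1 (adjusted p = 0.0127). Horizontal cells of E26b had 4017 and 1929 CPM of these rows, more than precursors, while 0.27 CPM or less of either was left in any class at P1. Row 17804 was seen again at P17 across classes, at 190 CPM in bipolar cells, 161 in cones and 157 in amacrine cells. Rods had 127 CPM there and late-stage neurogenic progenitors 94.7 CPM. Both calls were lost without E26b, with sums thinned to the smallest, and with the E26 and P1 libraries alone, and that of row 17801 also without P1a.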

How the data were processed

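Whole 13LGS retinas were dissociated, and methanol-fixed cells or nuclei of frozen tissue were profiled (10x Chromium 3′ v3.1). The authors processed reads with Cell Ranger 3.1.0 on the HiC_Itri_2 assembly, per the study's methods (the submitters' processing notes list GRCm38), joined libraries with its aggr step and named clusters in Seurat 4.0.4 from marker genes. The sources used here do not state filters on cells or a removal of doublets. The deposited values are UMI counts per matrix row and cell, whole numbers with no normalization, in 34181 rows and 53394 cells. The 30265 listed gene names could not be paired with these rows.

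Cells were grouped by the deposited cell type and library. The members and row sets were chosen with earlier results of these data known. Counts were summed per library and class with at least 10 cells. The sums of precursors held 182302 to 3186709 UMIs and the shallowest precursor 827. Sums were tested with edgeR 4.0.16 (glmQLFit, filterByExpr, TMM, in R 4.3.3), with a library block for the slopes of 2 classes, and with DESeq2 1.42.0 as an alternative. The fit of age in precursors was checked on simulated counts, and the other edgeR fits were not. Shares were tested with exact permutation tests (SciPy 1.17.1). CPM values scale a sum to 1000000 UMIs, with a pseudocount of 1 CPM for ratios. A row set held up to 50 rows with at least 50 CPM in its class and above every other class in each library used, ranked by log2 ratio. Rows were named by rule: at most 2 per direction and comparison, with an adjusted p below 0.05, at least 50 CPM on average, the groups compared not overlapping, and the largest log2 change; 2 more were named for the highest lowest ratio to the other classes. Alternatives covered normalization, filter, depth, cells of high UMI count, age scale and left-out libraries.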

Additional observations from a re-analysis of the deposited data

Results flagged for a closer look

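The slope with age differed between precursors and another class of the same libraries for 442 rows against late-stage neurogenic progenitors and 453 rows against amacrine cells, by the interaction test in edgeR. The 4 rows named against late-stage neurogenic progenitors had log2 differences of 6.46 (row 6843), 4.63 (row 11242), -4.23 (row 4936) and -3.99 (row 19061) in the change from P1 to P12. The 4 rows named against amacrine cells had log2 differences of 5.65 (row 11242), 4.90 (row 11460), -4.61 (row 13586) and -4.08 (row 23818). Rows 11460, 19061 and 23818 had no call for age within precursors and passed that test in the class they were compared with (adjusted p = 0.0014 and 0.0016 in amacrine cells for rows 11460 and 23818, and 4.3e-04 in late-stage neurogenic progenitors for row 19061).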

How the results depend on the processing

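No paired analysis was possible because the suffixes of the cell names carry no replicate numbers, so libraries of different ages could not be matched. The library block in the slopes of 2 classes joins classes of the same library. The count of rows changed with age in precursors was 442 with no filter on low counts, 95 without cells of high UMI count, 84 with every sum thinned to the smallest, 28 without both P1 libraries, 67 without both P8 libraries, 270 with DESeq2, and 89 to 188 with a library left out. Against late-stage neurogenic progenitors it was 74 thinned, 50 without both P1 libraries and 171 to 622 with a library left out, and against amacrine cells 128, 43 and 171 to 935. Across birth it was 159 with no filter, 6 thinned, 8 with the E26 and P1 libraries alone, and 13 to 300 with a library left out. Fewer rows were tested after thinning; the cause of the other moves was not tested. The relation of precursors per late-stage neurogenic progenitor with day had rho = 0 without both P8 libraries, which is no direction, and ran from -0.35 to 0.26 with a library left out (0.029 without P8a, 0.26 without P12a). The share nearest late-stage neurogenic progenitors reversed to rho = 0.10 with rank similarity, and that nearest amacrine cells ran from -0.31 to 0.44 (-0.18 without P1b, -0.31 without P12a). With up to 100 rows per set the median log2 change reversed for rod (0.030) and early-stage primary progenitor rows (-0.17), and with at least 100 CPM for rod (0.056), early-stage primary progenitor (-0.53) and horizontal cell rows (-0.10). The 16 values of named rows kept their direction in 234 of 234 repeats and lost their call in 29. A step between P4 and P8, chosen after seeing the data, gave 166 rows. Depth limits P12a most, with 36 precursors.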
